A study of Mus musculus with 2 samples.

Results

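The cytochrome P450 genes of mouse embryonic fibroblasts are described here. They are the genes whose symbol is Cyp followed by a digit in the authors' deposited table, leaving out Cyp51, Cyp26a1 and Cyp26b1, and they number 99 of 23365 genes. Embryonic fibroblasts are mesenchymal cells grown from mouse embryos. RNA was sequenced from wild-type cells and from cells with TET1 and TET2 knocked out, the TET enzymes that oxidize 5-methylcytosine in DNA, with 1 library per genotype. Neither the age of the embryos, nor their strain, nor how the knock-out was made is stated in the labels. The study asked how Tet1 and Tet2 bear on developmental genes through DNA methylation.

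In the authors' deposited table the conditions are called A and B, names that match neither sample's labels. Every difference is therefore given as condition B over condition A and assigned to no genotype. The level of a gene is its mean normalized count, the authors' mean over both conditions of counts divided by size factors. A gene counts as past the size rule when that mean is at least 50 and the 2 conditions lie at least 2-fold apart (log2 ratios of 1 and above, or -1 and below). A gene counts as past the authors' threshold when their DESeq adjusted p is under 0.1. With 1 library per condition no difference has a replicate check, and the p-values compare 2 libraries, not genotypes. Fewer cells of a type and less RNA per cell cannot be told apart in such bulk RNA.

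Cytochrome P450 enzymes hold a heme whose iron activates oxygen, and they insert an oxygen atom into lipids, steroids, vitamins and foreign compounds. Most sit in the endoplasmic reticulum and take electrons from the reductase encoded by Por, while those in mitochondria take them from Fdxr through Fdx1. The Cyp1, Cyp2 and Cyp3 families are known for clearing foreign compounds, above all in liver. Cyp4 enzymes hydroxylate fatty acids, and further families make and break down steroid hormones, bile acids, oxysterols and vitamin D. Cyp1b1 is the family member best known from embryonic fibroblasts.

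All 8 fibroblast markers reached the minimum mean, among them Col1a1 at a mean normalized count of 312018 and a log2 ratio of -0.08 by the authors' deposited table. Of these 8, 7 lay within 2-fold, and Postn, at a mean of 58862, was 6.06-fold higher in B by the authors' deposited table (adjusted p = 0.00528). Of 9 hepatocyte markers 4 were listed at 0, Alb had a mean of 1.00, and Apob with 361 made up most of the list's sum of 369. The 5 markers of adrenal or gonadal steroid cells summed to 975, of which Fdx1 gave 870 and Star 102. Insl3 and Nr5a1 were listed at 0, and Hsd3b1 had a mean of 3.16. Leukocyte markers summed to a mean of 224 over 6 genes, with Ptprc at 3.53 and Lyz2, at a log2 ratio of 3.84, at 94.7. Endothelial markers summed to 437 over 4 genes, of which Kdr gave 418 at a log2 ratio of 2.78 by the authors' deposited table. Pecam1 had a mean of 9.80 (log2 ratio 2.06) and Cdh5 one of 8.43 (-0.36). Tie1, at a mean of 0.474, was listed at 0 in condition B. Keratinocyte markers summed to 200.1 over 6 genes, mostly from Krt10 at 127 (log2 ratio 0.09), Lor at 40.1 (1.79) and Ivl at 22.5 (1.25). Krt5 had a mean of 9.43 (log2 ratio 4.24) and Krt14 one of 0.527. Epithelial markers summed to 141 over 4 genes, with Epcam at 4.37 and Krt18 at a log2 ratio of -2.29. Their part in the differences below was not tested. The targeted genes Tet1 and Tet2 had log2 ratios of -1.82 and -0.74 by the authors' deposited table, and these leave the conditions unassigned.

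Few of the P450 genes were expressed at a level that could be compared. Of the 99 genes, 52 (52.5%) were listed by the authors' deposited table at 0 in both conditions, against 25.8% of all genes. A mean normalized count of at least 50 was reached by 15 P450 genes (15.2%), against 53.1% of all genes. Another 7 had a mean from 10 to 50, and 25 had one above 0 and under 10. The 15 genes at the minimum had a median mean of 284, against 2041 over all 12401 genes at that minimum. All 99 P450 genes together summed to 30998, or 0.0533% of the sum over all genes. Just inside the minimum lay Cyp46a1 at 51.5 and Cyp2d22 at 57.7, and just outside it Cyp2s1 at 46.1 and Cyp2r1 at 36.1.

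The P450 signal was held by a handful of genes of different families. Cyp1b1 alone made up 67.0% of the summed mean normalized counts, and the 3 highest genes, Cyp1b1, Cyp20a1 and Cyp4f16, made up 84.5%. With Cyp2j6 and Cyp4v3 added, the top 5 genes held 91.5%. Cyp51, Cyp26a1 and Cyp26b1, which the rule leaves out, do not enter these shares or the order below. Levels between genes were compared per kilobase of the longest annotated transcript. On that scale Cyp1b1 came first with a mean normalized count of 4050.2 per kilobase, followed by Cyp20a1 with 1705, Cyp4f16 with 735 and Cyp2j6 with 373. Cyp4f13, Cyp4f17 and Cyp4v3 followed at 285, 259.5 and 217 per kilobase, and Cyp7b1 at 131. The 7 other genes at the minimum lay between 78.5 per kilobase for Cyp39a1 and 17.0 for Cyp2d22. With 1 mean per gene, these levels have no spread, so neighbours in the order cannot be told apart beyond error.

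**Figure D1:**
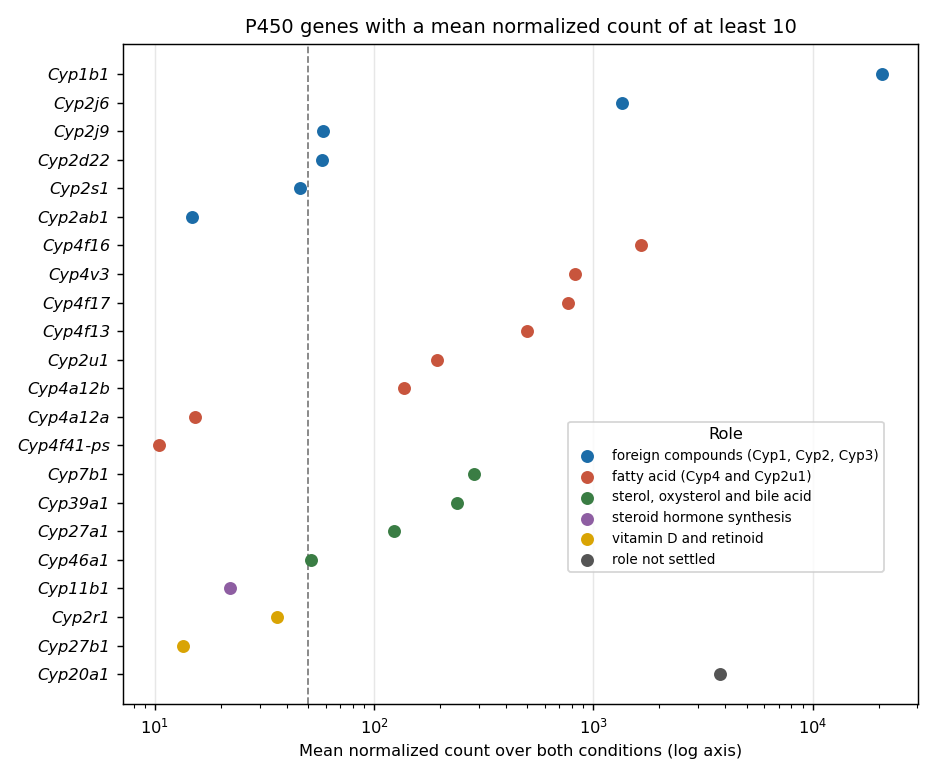
Each point is 1 of the 22 P450 genes whose mean normalized count is 10 or more, placed by that mean on a log axis, coloured by role and with the minimum of 50 as a dashed line. Cyp1b1 stands highest at 20769. Of the genes kept by the rule, none grouped under steroid hormone synthesis or under vitamin D and retinoid reaches the minimum. The retinoid genes Cyp26a1 and Cyp26b1, which the rule leaves out, are not shown.

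Of the 15 genes at the minimum, 3 (20.0%) were at least 2-fold higher in condition B, against 8.31% of all genes at that minimum. Another 3 (20.0%) were at least 2-fold higher in condition A, against 9.6% of all genes. The 3 higher in condition B were Cyp4a12b, Cyp2d22 and Cyp2j9, and the 3 higher in condition A were Cyp7b1, Cyp27a1 and Cyp39a1. The other 9 lay within 2-fold. Of 47 P450 genes with a p-value in the authors' deposited table, 1 passed the threshold, Cyp4a12b, higher in condition B, where 1.42% of all genes passed in that direction. None passed toward condition A, where 0.871% of all genes did. With counts this small, a share above the background rests on a few genes. The background was also not matched for level, as the 15 genes had a median mean of 284, against 2041 for all genes. With a minimum mean of 200, 0 P450 genes were at least 2-fold higher in condition B and 2 in condition A. The median log2 ratio of the 15 genes was 0.11, against -0.04 over all genes at the minimum, and it was -0.43 over the 9 genes with a mean of at least 200.

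**Figure D2:**
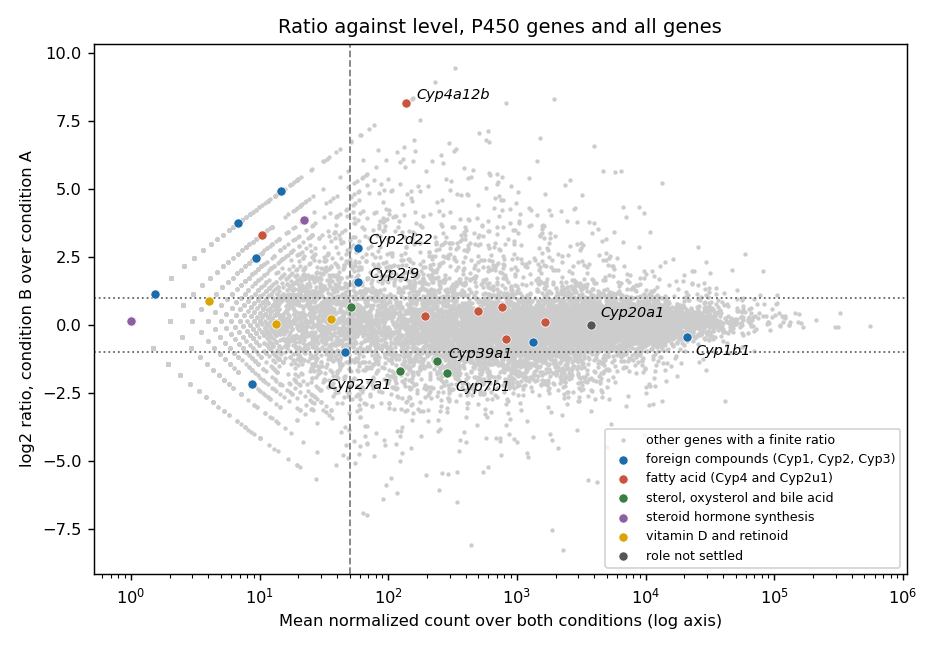
Each coloured point is a P450 gene with a finite ratio, placed by its mean normalized count (log axis) and its log2 ratio of condition B over condition A. Grey points are all other such genes, dotted lines mark a 2-fold difference and the dashed line a mean of 50. The P450 genes of high level lie near 0, and the largest ratio at the minimum is that of Cyp4a12b at 8.17.

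Only 1 gene of the Cyp1 family reached the minimum mean. Cyp1b1, which oxidizes estrogens, retinol and polycyclic aromatic hydrocarbons, had a mean normalized count of 20769 by the authors' deposited table, and only 3.48% of all genes at the minimum had a higher one. The authors' deposited table puts it 1.35-fold lower in B, a log2 ratio of -0.43 (adjusted p = 1). Its relatives Cyp1a1 and Cyp1a2, which with Cyp1b1 are the classical targets of the aryl hydrocarbon receptor, had means of 6.80 and 0.527. Per kilobase, Cyp1b1 stood at 4050.2 and Cyp1a1 at 2.52. For Cyp1a1 the authors' deposited table gives a log2 ratio of 3.74 (adjusted p = 1), a ratio of very low counts. Cyp1a2 is listed there at 0 in condition A.

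The stretches before the start sites of Cyp1b1 and Cyp1a1 are shown because these 2 genes share a regulator and lay far apart in level. Each holds the 250 bases before the start, from RefSeq on GRCm38.p6, a build other than the authors'. That of Cyp1b1 is chr17:79715062-79715311 on the minus strand, and that of Cyp1a1 is chr9:57697363-57697612 on the plus strand. Capitals mark GCGTG, the core that the aryl hydrocarbon receptor and Arnt bind, or its reverse complement CACGC.
Cyp1b1: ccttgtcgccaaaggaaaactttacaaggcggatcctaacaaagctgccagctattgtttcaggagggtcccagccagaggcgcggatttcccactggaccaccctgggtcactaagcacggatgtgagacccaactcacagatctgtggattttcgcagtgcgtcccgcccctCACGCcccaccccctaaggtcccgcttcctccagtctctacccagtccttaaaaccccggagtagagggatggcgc
Cyp1a1: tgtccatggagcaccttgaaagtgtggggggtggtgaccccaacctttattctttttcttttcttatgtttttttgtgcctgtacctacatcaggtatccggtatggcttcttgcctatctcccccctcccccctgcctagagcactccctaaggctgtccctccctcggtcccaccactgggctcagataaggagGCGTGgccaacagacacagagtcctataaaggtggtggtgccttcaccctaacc
Each holds 1 such core, as do 28.2% of 32851 stretches of the same length when both strands are searched, with at least 1 match counted. CpG pairs, the sites of DNA methylation, number 12 in the stretch of Cyp1b1 and 3 in that of Cyp1a1. The median over all such stretches is 6, and 33.5% of them hold as many as that of Cyp1b1 or more. These matches describe letters only, and neither binding nor methylation was measured here. Only these 250 bases were searched, so cores farther from the start sites are not covered. Promoter sequences were at hand for 71 of the 99 genes (71.7%), so no comparison of promoters over the family was made.

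The Cyp2 and Cyp3 families were mostly listed at 0. Among the 61 genes of the foreign-compound families, the 3 Cyp1 genes included, 40 were listed at 0, 15 had a mean above 0 and under 10, 2 had one from 10 to 50 and 4 reached 50. All 4 Cyp2a genes were listed at 0, as were 3 of 5 Cyp2b, 12 of 16 Cyp2c, 7 of 10 Cyp2d and 7 of 9 Cyp3a genes. These subfamilies are the liver's main drug-clearing P450 genes, and Cyp2d22 was their only gene at the minimum. Cyp2e1 was also listed at 0 in the authors' deposited table.

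Cyp2j6, of a subfamily that makes epoxides of arachidonic acid, had a mean normalized count of 1344 and was 1.54-fold lower in B by the authors' deposited table (log2 ratio -0.62, adjusted p = 1). Its relative Cyp2j9 had a mean of 58.4 and, by the authors' deposited table, was 2.97-fold higher in B (log2 ratio 1.57, adjusted p = 1). Cyp2j5, Cyp2j8, Cyp2j11 and Cyp2j13 were listed at 0, and Cyp2j12 had a mean of 1.58. Of the 7 Cyp2j genes, the 2 at the minimum thus had ratios of opposite direction. Cyp2d22, a relative of human CYP2D6, was 7.11-fold higher in B by the authors' deposited table at a mean of 57.7 (adjusted p = 1). The other Cyp2d genes above 0 were Cyp2d26 at 1.00 and Cyp2d40 at 0.527. Cyp2s1, a P450 known from tissues outside the liver, lay just under the minimum at 46.1, with a log2 ratio of -1.01 by the authors' deposited table. Cyp2ab1, at a mean of 14.7, lay at a log2 ratio of 4.91 by the authors' deposited table (adjusted p = 1), a ratio of low counts.

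Fatty acid hydroxylases formed the largest group of comparable genes. Of 21 genes of the Cyp4 family and Cyp2u1, 6 reached the minimum, 2 had a mean from 10 to 50, 5 one above 0 and under 10, and 8 were listed at 0. In the Cyp4f subfamily, whose enzymes hydroxylate fatty acids and leukotrienes, 8 of 9 genes were above 0 and 3 reached the minimum. Cyp4f16 had a mean normalized count of 1648 and a log2 ratio of 0.11 by the authors' deposited table, Cyp4f17 a mean of 763 and a ratio of 0.67, and Cyp4f13 a mean of 499.5 and a ratio of 0.52. Each has an adjusted p of 1 and lies within 2-fold. Cyp4v3, the mouse counterpart of the human eye disease gene CYP4V2, had a mean of 825 and a log2 ratio of -0.52 there. Cyp2u1, a hydroxylase of long-chain fatty acids, had a mean of 193 and a log2 ratio of 0.31. The pseudogene Cyp4f41-ps lay at 10.4 with a log2 ratio of 3.32 by the authors' deposited table (adjusted p = 1), and Cyp4f15 and Cyp4x1 were listed at 0.

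Cyp4a12b had the largest ratio of the P450 genes at the minimum. Cyp4a12a and Cyp4a12b encode Cyp4a fatty acid hydroxylases known from male mouse kidney. In the authors' deposited table Cyp4a12b had a mean normalized count of 137 and was 288-fold higher in condition B (log2 ratio 8.17, adjusted p = 0.00181). Cyp4a12a had a mean of 15.3 and is listed there at 0 in condition A, so no fold is given. A 288-fold ratio at this mean leaves condition A close to 0, so the size of the fold rests on very few reads there. No counting interval could be given for it.

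The Cyp4a12a and Cyp4a12b transcripts are near-identical, and their reads are therefore hard to assign. Of the 1524 coding bases of each, from GENCODE M21 on GRCm38, 23 differ, an identity of 98.5%. The longest run without a difference has 342 bases, and 54.8% of the 50-base windows of the coding sequence hold no difference. Over the whole transcripts, 49.4% of the 50-base stretches of Cyp4a12b occur in Cyp4a12a and 48.9% of those of Cyp4a12a occur in Cyp4a12b. Shown here is the stretch of 150 coding bases with the most differences, bases 660 to 809 counted from the first base of the start codon, with the 9 bases that differ in capitals.
Cyp4a12a: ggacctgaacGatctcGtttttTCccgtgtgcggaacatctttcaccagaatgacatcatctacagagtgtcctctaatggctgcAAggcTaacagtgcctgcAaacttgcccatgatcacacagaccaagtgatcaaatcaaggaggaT
Cyp4a12b: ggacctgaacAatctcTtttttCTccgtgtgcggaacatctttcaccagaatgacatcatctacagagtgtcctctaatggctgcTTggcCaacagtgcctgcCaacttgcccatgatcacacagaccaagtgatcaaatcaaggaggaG
How the authors counted reads that match both genes goes unstated in the sources used here, so how the signal divides between them is uncertain. Both genes were higher in condition B, and a sum of the 2 would be too.

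The genes around Cyp4a12b were described because the Cyp4a genes lie in 1 cluster. Among the 15 genes of the table on each side, in RefSeq order, 9 were other P450 genes and 7 of these were listed at 0, among them Cyp4a14, Cyp4a10 and Cyp4a31. Only Cyp4a12a and Cyp4b1, with means of 15.3 and 6.32, were above 0, and the authors' deposited table has both at 0 in condition A. Of the 21 neighbours that are no P450 genes, 8 reached the minimum mean. By the size rule 1 of these 8, Trabd2b at a log2 ratio of 1.71, was higher in condition B, against 8.31% of all genes. Stil at -1.64 and 9130206I24Rik at -1.71 were higher in condition A, against 9.6% of all genes. Of the 15 such neighbours with a p-value, 0 passed the authors' threshold. Of all genes with a p-value, 1.42% passed toward condition B and 0.871% toward condition A, so 0 of 15 says little. Cmpk1 and Efcab14, the neighbours with the highest means, had log2 ratios of 0.33 and -0.04 by the authors' deposited table.

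**Figure D3:**
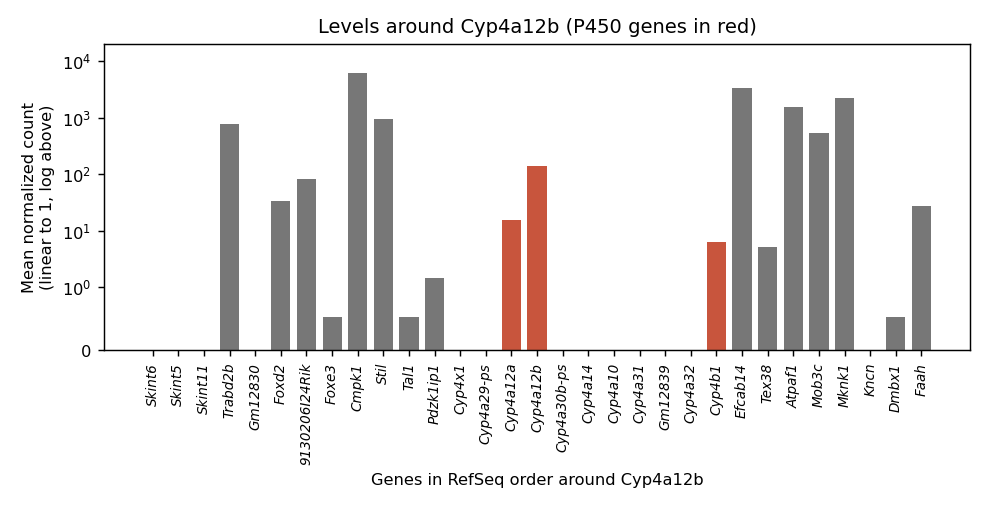
Bars give the mean normalized count over both conditions (linear to 1, log above) of the 31 genes around Cyp4a12b in RefSeq order, P450 genes in red and others in grey. Cyp4a12b at 137 and Cyp4a12a at 15.3 stand between P450 genes listed at 0.

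Sterol-modifying P450 genes reached the minimum in 4 of 6 cases, and 3 of those 4 passed the size rule toward condition A, as did 9.6% of all genes at the minimum. This grouping by role was chosen with earlier results of these data known, so the share is a description only. Cyp7b1, which hydroxylates oxysterols on the way to bile acids and limits their level, was 3.42-fold lower in B by the authors' deposited table at a mean normalized count of 284 (log2 ratio -1.78, adjusted p = 0.963). Cyp27a1, the mitochondrial sterol hydroxylase that makes an oxysterol from cholesterol, was 3.24-fold lower there at a mean of 123. Cyp39a1, which hydroxylates the oxysterol made by Cyp46a1, was 2.53-fold lower in B by the authors' deposited table at a mean of 239.7. Both have an adjusted p of 1. Cyp46a1, the cholesterol hydroxylase of neurons, lay at a mean of 51.5 with a log2 ratio of 0.67. Cyp7a1 and Cyp8b1, the bile acid enzymes of hepatocytes, were listed at 0. The median log2 ratio of the 4 genes was -1.52, against -0.04 over all genes at the minimum. Of the 4, 0 passed the authors' threshold, which 0.871% of all genes with a p-value passed toward condition A and 1.42% toward condition B.

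Genes of steroid hormone synthesis all lay below the minimum. Of 6 genes, Cyp17a1 and Cyp11b2 were listed at 0, and Cyp11a1, Cyp19a1 and Cyp21a1 had mean normalized counts of 1.58, 1.05 and 1.00. Cyp11b1, which makes corticosterone in the adrenal cortex, had a mean of 21.98 and was 14.4-fold higher in B by the authors' deposited table (adjusted p = 1). In the annotation 18.1% of the 50-base stretches of Cyp11b1 occur in transcripts of other genes, and 285 bases of its exons overlap Gml2 on the opposite strand. The 3 vitamin D genes and Cyp26c1 were low as well, a statement that does not cover the retinoid genes Cyp26a1 and Cyp26b1, which the rule leaves out. Cyp2r1, which starts the activation of vitamin D, had a mean of 36.1 and a log2 ratio of 0.23, and Cyp27b1, which completes it, a mean of 13.5 and a ratio of 0.05 by the authors' deposited table. Cyp24a1, which breaks down active vitamin D, had a mean of 4.06. Its exons share 83 bases with Pfdn4 on the opposite strand, a gene with a mean of 1471, and the library kit does not mark strand. Cyp26c1, a retinoic acid hydroxylase, lay at 0.527.

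Cyp20a1, a P450 whose substrate is not settled, was second in level among the genes kept by the rule, which leaves out Cyp51. Among these genes it also had the ratio nearest to 1. Its mean normalized count was 3789.7 and its log2 ratio 0.01 by the authors' deposited table (adjusted p = 1).

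Below the minimum, most P450 genes with any signal were higher in condition B. Of 32 genes with a mean above 0 and under 50, 28 (87.5%) were higher in condition B, against 62.2% of the 4938 genes in the same range. The authors' deposited table lists 16 of these 32 at 0 in condition A and 2 at 0 in condition B, while 22.03% of all such genes are at 0 in condition A and 11.9% in condition B. The 4 genes higher in condition A were Cyp2s1, Cyp2c44, Cyp4f40 and Cyp2c66, named after their values were seen. All 32 have an adjusted p above 0.1, while 1.42% of all genes with a p-value passed toward condition B and 0.871% toward condition A. The means of these 32 ranged from 0.474, the smallest above 0 in the whole table, to 46.1, and 25 of them were under 10. Several of the 28 rest on values near that floor. Cyp21a1, Cyp2d26 and Cyp4f14 each had a mean of 1.00 and were only 1.11-fold higher in condition B. The smallest mean was 0.527 for genes at 0 in condition A and 0.474 for genes at 0 in condition B. If both stand for the same raw count, equal raw counts in the 2 libraries would also give 1.11-fold. These genes may thus be ties that are counted as higher in condition B. Cyp1a2 and Cyp26c1 were among those with a mean of 0.527. At such means the direction of a single gene says little.

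Near-identical copies and overlaps touch further members. At least 40% of the 50-base stretches occurred in transcripts of other genes for 11 members, of which Cyp4a12a, Cyp4a12b and Cyp3a41a had a mean above 0. Cyp4f16 shared 24.8% of its stretches with Cyp4f37. Exons of 19 members overlap those of another gene in the annotation, and 2 of these, Cyp2u1 and Cyp4v3, were at the minimum. Cyp2u1 overlaps 4930534D22Rik by 548 bases on the opposite strand, and Cyp4v3 overlaps Gm45753 by 313 bases on the same strand. The values of these genes are uncertain to that extent.

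Genes on the electron donor and heme lists lay within 2-fold where they reached the minimum, as did 82.1% of all genes at that minimum. Of 12 genes on the electron donor list, which also held Pgrmc1 and Pgrmc2, 11 were in the table. Among them 10 reached the minimum, all within 2-fold, with a median log2 ratio of 0.12. The reductase gene Por had, by the authors' deposited table, a mean normalized count of 10227 and a log2 ratio of 0.12. The largest ratios were those of Pgrmc2, which binds heme, at 0.58, Cyb5r3 at 0.46 and Cyb5r2 at 0.39, both cytochrome b5 reductases. The mitochondrial pair Fdx1 and Fdxr had log2 ratios of 0.32 and 0.04 there. Of 13 genes of heme synthesis and breakdown 12 reached the minimum, again all within 2-fold, with a median of 0.05. Blvrb, which reduces biliverdin, had the largest ratio at 0.85, and Fech, which inserts the iron, lay at 0.62. Alad, an early enzyme of heme synthesis, lay at -0.54 and Uros at 0.44 in the authors' deposited table. The rate-setting Alas1 had a log2 ratio of 0.39. None of these genes passed the authors' threshold, which 1.42% of all genes with a p-value passed toward condition B and 0.871% toward condition A.

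Regulators of P450 genes included 1 that passed the authors' threshold. Of 20 genes 11 reached the minimum, and by the size rule 1 was higher in B (9.09%, against 8.31% of all genes) and 2 in A (18.2%, against 9.6%), at a median of 0.23 (log2). The 1 gene past the authors' threshold was higher in A, where 0.871% of all genes passed. Ahr, the aryl hydrocarbon receptor that induces Cyp1 genes, was 4.17-fold lower in B by the authors' deposited table at a mean normalized count of 3382 (adjusted p = 0.0889). Arnt2, by the authors' deposited table, was 2.97-fold lower (adjusted p = 0.390), while Arnt, the main partner of Ahr, had a log2 ratio of -0.04. Ahrr, the repressor of Ahr, was 2.40-fold higher at a mean of 226, and Tiparp, also an Ahr target, had a log2 ratio of 1.00 by the authors' deposited table, just under the size rule. Beside these, Cyp1b1 had its log2 ratio of -0.43. Among nuclear receptors, Vdr had a ratio of 0.82 and Rxra one of -0.15. The liver regulators Nr1i2, Hnf4a and Nr0b2 were listed at 0, as was Nr5a1, the factor of steroid-making cells, and Nr1i3 had a mean of 0.474.

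Among enzymes that act beside P450 on the same lipids, the shares past the size rule were near those of all genes. Of 18 genes 9 reached the minimum, and by the size rule 1 was higher in B and 1 in A (11.1% each, against 8.31% and 9.6% of all genes), at a median of 0.06 (log2). Ch25h, which is not a P450 and makes an oxysterol that Cyp7b1 breaks down, was 8.12-fold higher in B by the authors' deposited table at a mean of 679 (adjusted p = 0.0191). Srd5a1, which reduces steroids, was 2.15-fold lower by the authors' deposited table (adjusted p = 1). Star, which carries cholesterol into mitochondria, had a log2 ratio of 0.90 and Ptgs1, a cyclooxygenase, one of 0.86. The epoxide hydrolase gene Ephx1 had a mean of 17811 and a log2 ratio of 0.70, and Ephx2 one of -0.43 by the authors' deposited table. Of the 2 P450 enzymes that carry other names, Ptgis, the prostacyclin synthase, had a mean of 3819 and a log2 ratio of -0.25, and Tbxas1, the thromboxane synthase, a mean of 9.01.

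**Figure D4:**
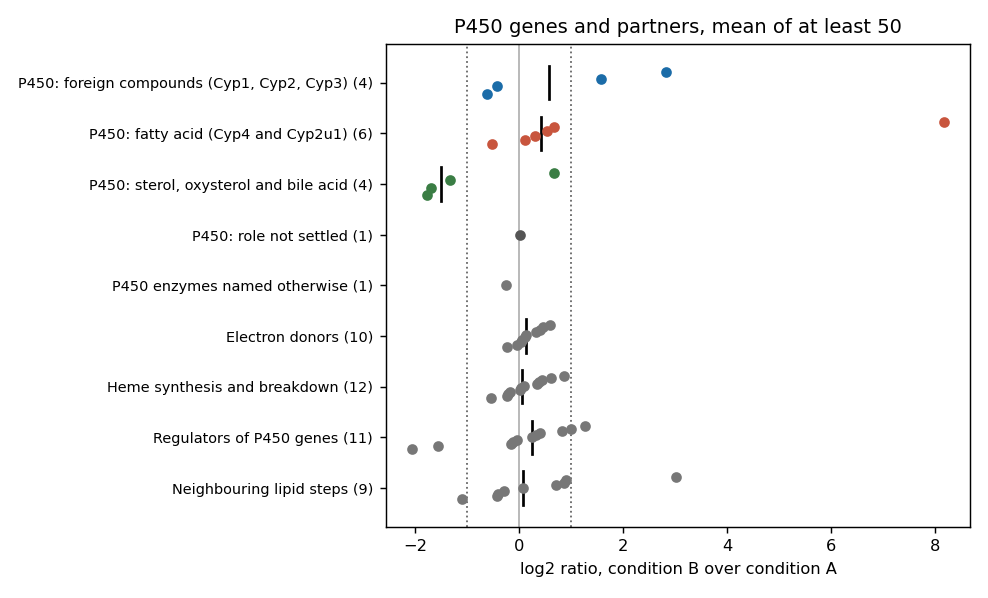
Points are log2 ratios of condition B over condition A for genes whose mean normalized count is 50 or more, by P450 role (coloured) and by partner list (grey). Each group's number of genes stands in parentheses, black bars are medians, and dotted lines mark a 2-fold difference. Electron donors and heme genes lie between -0.54 and 0.85, while 3 of 4 sterol P450 genes lie at -1.34 or lower. Roles and lists were chosen with earlier results of these data known.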

How the data were processed

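RNA was measured in 2 samples, 1 library per genotype. TruSeq RNA v2 libraries were made from DNase-treated TRIzol RNA, per the labels' protocols. TopHat2 2.0, DESeq and the build mm9 are listed in the submitters' processing notes, while the sources used here name neither counter nor annotation. The signal used is the authors' deposited mean normalized count. The authors' deposited ratio is the fold of condition B over condition A, their log2 column is its logarithm with no pseudocount, and the p-values are the authors' own, with Benjamini-Hochberg adjustment over 17339 genes.

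The 2 columns of values per condition match the labels of neither sample and were not used, so levels per library, counting intervals and library depth were not analysed here. The means sum to 58127900 over all genes.

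Members and lists were chosen with earlier results of these data known. The genes named are those with a mean of at least 50, those past the authors' threshold, those from 10 to 50 that lie at least 4-fold apart or at 0 in 1 condition, and up to 4 of each list with the largest ratios. Others were named after their values were seen. Tables were made with Python 3.11.15 and pandas 2.3.3. The size rule and the trimmed mean were tested on simulated data. Transcript length, shared stretches and exon overlap come from GENCODE M21 on GRCm38 (98 of 99 genes matched), and gene order from RefSeq GRCm38.p6, used for names and neighbours only. Alternatives were 2 other scalings, minimum means of 10, 200 and none, 1.5-fold and 4-fold size rules, an adjusted p under 0.05, and, added after the data were seen, leaving out near-identical copies.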

Additional observations from a re-analysis of the deposited data

How the results depend on the processing

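No paired analysis was possible because each genotype has 1 library, and for the same reason no library could be left out. Subtracting the trimmed mean of log2 ratios (-0.04) or the median of all genes (-0.04) changed the sign of 0 of 21 named ratios and left the P450 genes past the size rule at 3 in each direction. The median log2 ratio of the P450 genes became 0.15 with the first and 0.14 with the second. With a minimum mean of 10, 7 of 22 genes lay higher in condition B, 4 lay higher in condition A and the median was 0.27. With a minimum of 200, 0 of 9 were higher in condition B, 2 were higher in condition A and the median was -0.43. With no minimum and finite ratios, 9 of 29 were higher in condition B, 5 higher in condition A, and the median was 0.23. Among the 15 genes at the minimum of 50, a 1.5-fold rule gave 5 higher in condition B and 4 in condition A. A 4-fold rule gave 2 higher in condition B and 0 in condition A. Without members that share at least 40% of their 50-base stretches, 0 genes passed the authors' threshold, since Cyp4a12b was left out. By the size rule 2 of 14 were then higher in condition B and 3 in condition A, and the median was 0.057. The share of all genes was not computed for any of these settings, so these counts have no background beside them. The 2 scalings shift every ratio by a constant, and the fold rules move the threshold over the same genes. The other settings change which genes enter. A pseudocount needs the columns per condition and was not tried. With 1 library per condition, ratios at low means are limited by counting error that was not computed here.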
